A study of Mus musculus with 4 samples.

Results

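The 9 genes described here encode the DNA-binding subunits of the transcription factor NF-κB (Rel, Rela, Relb, Nfkb1, Nfkb2) and proteins that restrain or modify it (Nfkbia, Nfkbiz, Bcl3, Tnfaip3). They were chosen by name, out of 21755 protein-coding genes of the GENCODE M21 annotation, and all 9 were found. Every deposited ATAC-seq peak that overlapped a gene body or the 10 kb on either side of it was taken, on the GRCm38 build. Peaks with a −log10 q of 2 or more, called strict here, were merged over the libraries into regions, and 99 of 155546 such regions lay in the 9 windows.

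In unstimulated cells, NF-κB dimers are held in the cytoplasm by inhibitors such as IκBα, the product of Nfkbia. Signals from Toll-like and cytokine receptors activate the IκB kinase, IκBα is degraded, and the freed dimers enter the nucleus and bind κB sites. Several NF-κB targets encode members of the pathway itself, among them Nfkbia and Tnfaip3, which dampen the response in macrophages and microglia.

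ATAC-seq was performed on microglia, the resident macrophages of the brain, sorted by flow cytometry from untreated C57BL/6 mice at 3 months of age. There were 2 libraries labelled WT and 2 labelled IRF8KO, and IRF8, a member of the interferon regulatory factors, binds DNA with PU.1. Neither the construction of the IRF8KO allele nor the number of animals behind a library is given in the labels, so the spread between replicates may be technical. The comparison addressed how accessibility differs between the genotypes.

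Depth followed genotype, at 46948938 and 48896408 tags in WT replicates 1 and 2 and 78793572 and 66224648 tags in IRF8KO replicates 1 and 2. Summit pileups, the number of extended cut sites at a peak's highest point, were therefore divided by tag number and are given per 1000000 tags throughout, as normalised pileup. IRF8KO replicate 1 still had the lowest median over the 58550 regions with a deposited peak in every library, at 0.444 against 0.614 to 0.767 in the other libraries. Irf8 itself kept a deposited peak at its start in all 4 libraries, at 2.07 and 1.49 in WT and 0.863 and 1.36 in IRF8KO, so peak lists do not check the deletion. Promoters of 8 microglial marker genes held strict peaks in 8 and 8 cases in WT and in 7 and 7 in IRF8KO, where the promoter of Sall1 had none. Promoters of 4 border macrophage markers summed to 0.958 and 0.757 in WT and to 2.39 and 4.27 in IRF8KO, with strict peaks at 2 and 2 and at 3 and 3 of them. Among these, Lyve1 had no strict peak in any library and Cd163 had one in both IRF8KO libraries alone. Promoters of 4 endothelial markers summed to 7.16 and 5.91 in WT and 1.43 and 2.2 in IRF8KO, but Cdh5 alone made up most of this (5.86 and 4.81 against 0.647 and 0.936), and the other 3 overlapped, at 1.3 and 1.1 in WT and 0.787 and 1.27 in IRF8KO. Oligodendrocyte markers summed to 2.04 and 1.47 in WT and 0.495 and 1.15 in IRF8KO, and astrocyte markers to 1.28 and 0.695 against 1.32 and 2.17. In bulk libraries such as these, a change in accessibility per cell and a change in the mix of cells cannot be told apart.

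The reference sequences of regions that differed between the genotypes are shown first. The stretches of 201 bp around the summit of the strongest peak are printed on the plus strand of GRCm38, with matches to the searched motifs in capitals. They are the WT-only region upstream of Rel (chr11:23778787-23778987), in which the capitals mark an ETS-IRF composite element, the kind of site that PU.1 and IRF8 bind together. The others are the WT-only region in an intron of Nfkb1 (chr3:135612826-135613026), which held no searched motif, and the upstream Bcl3 region that was higher in IRF8KO (chr7:19830832-19831032), in which capitals mark an AP-1 site.
Rel upstream: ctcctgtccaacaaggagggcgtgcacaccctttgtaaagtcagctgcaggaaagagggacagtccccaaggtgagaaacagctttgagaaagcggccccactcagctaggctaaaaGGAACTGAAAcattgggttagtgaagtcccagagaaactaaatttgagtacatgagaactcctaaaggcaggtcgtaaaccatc
Nfkb1 intron: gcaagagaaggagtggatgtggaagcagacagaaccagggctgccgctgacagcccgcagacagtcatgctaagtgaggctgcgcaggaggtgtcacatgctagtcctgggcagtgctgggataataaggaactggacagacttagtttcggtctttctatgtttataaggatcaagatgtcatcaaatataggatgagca
Bcl3 upstream: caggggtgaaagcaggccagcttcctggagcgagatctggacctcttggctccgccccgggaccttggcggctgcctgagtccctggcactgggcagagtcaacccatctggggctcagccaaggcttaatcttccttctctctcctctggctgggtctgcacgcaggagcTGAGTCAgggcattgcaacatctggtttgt

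Most of the 9 genes also held matches to the κB motif near their own starts. The 30-base stretches below run 5′ to 3′ on the strand of each gene, with the match to the κB motif in capitals, and are shown because the same kind of letters recurred near the starts of 6 members.
Rel: cgtaagcagcGGGAAATCCCcccccctccc
Nfkb1: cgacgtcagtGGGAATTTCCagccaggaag
Nfkb2: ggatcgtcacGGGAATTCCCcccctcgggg
Nfkbia: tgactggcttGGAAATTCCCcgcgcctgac
Bcl3: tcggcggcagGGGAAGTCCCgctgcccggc
Tnfaip3: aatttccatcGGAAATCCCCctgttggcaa
The matches lie at chr11:23771052-23771061, chr3:135691507-135691516, chr19:46304698-46304707, chr12:55492667-55492676, chr7:19822744-19822753 and chr10:19015413-19015422, in the order of the lines. In promoters of RefSeq (GRCm38.p6, 250 bases before to 50 after a start), a κB match was found in 5 of the 6 members with an entry, Rel, Nfkb2, Nfkbia, Bcl3 and Tnfaip3, and not in Rela. Of all 26794 gene symbols in that table, 9.62% had one. The Nfkb1 match comes from the summit window of the region at its start. A match describes letters and is not evidence of binding.

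In the 201 bp around the summits, κB motifs occurred in 13 of the 99 regions, or 13.1%, against 4.84% of all 155546 regions. Median GC content was 49.8% in the former windows and 49.3% in the latter. The ETS-IRF element (GGAANTGAAA) occurred in 2 of the 99, or 2.02%, against 2.07% of all, and the interferon response element (GAAANNGAAA) in 3, or 3.03%, against 3.13%. The members thus held κB letters more often than all regions and elements for IRF factors about as often, as a description without a test. Matches to AP-1 (TGACTCA or its reverse complement) occurred in 7 of 99, or 7.07%, against 5.91%, and matches to a CEBP motif (TTGCNNAA) in 10, or 10.1%, against 9.54%. PU.1 letters (GAGGAAGT) were found in 10, or 10.1%, against 7.74%, and RUNX letters (TGTGGTT) in 3, or 3.03%, against 5.58%. Both strands were searched, a κB match can read on both, and a PU.1 match can overlap an ETS-IRF element.

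Raw peak numbers around the 9 genes did not separate the genotypes. The windows held 75 and 73 strict peaks in the WT libraries and 72 and 88 in those of IRF8KO, means of 74 ± 1.41 and 80 ± 11.3 (SD, n = 2 each). The WT counts fell inside the range of the IRF8KO counts, and the difference of 6 had an exact two-sided permutation p of 1, where this design can go no lower than 0.333. Without IRF8KO replicate 2 the difference was -2. The whole strict lists differed in size, at 97473 and 98863 peaks in WT and 83996 and 95921 in IRF8KO. As shares of these lists, the windows held 0.0769% and 0.0738% in WT and 0.0857% and 0.0917% in IRF8KO, without overlap. Shares of all deposited peaks did overlap, at 0.0711% and 0.0523% in WT and 0.0536% and 0.0576% in IRF8KO. With weak peaks included, the WT lists had 102 and 93 peaks there and the IRF8KO lists 97 and 100. Of these, 14 and 15 in WT and 16 and 9 in IRF8KO touched no merged region and are counted here alone.

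By presence, 53 of the 99 regions held a deposited peak in all 4 libraries (shared), against 37.6% of all regions. WT-only regions, strict in each WT library and without any deposited peak in IRF8KO, numbered 2 of 99, or 2.02%, against 5.58% of all regions. IRF8KO-only regions, the converse, numbered 6, or 6.06%, against 3.86% of all regions, and at a −log10 q of 5 or more 1 was left. The remaining 38 had mixed patterns. The plot of region classes by gene places the genotype-specific regions at Rel, Nfkb1, Nfkbiz and Tnfaip3.

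**Figure D1:**
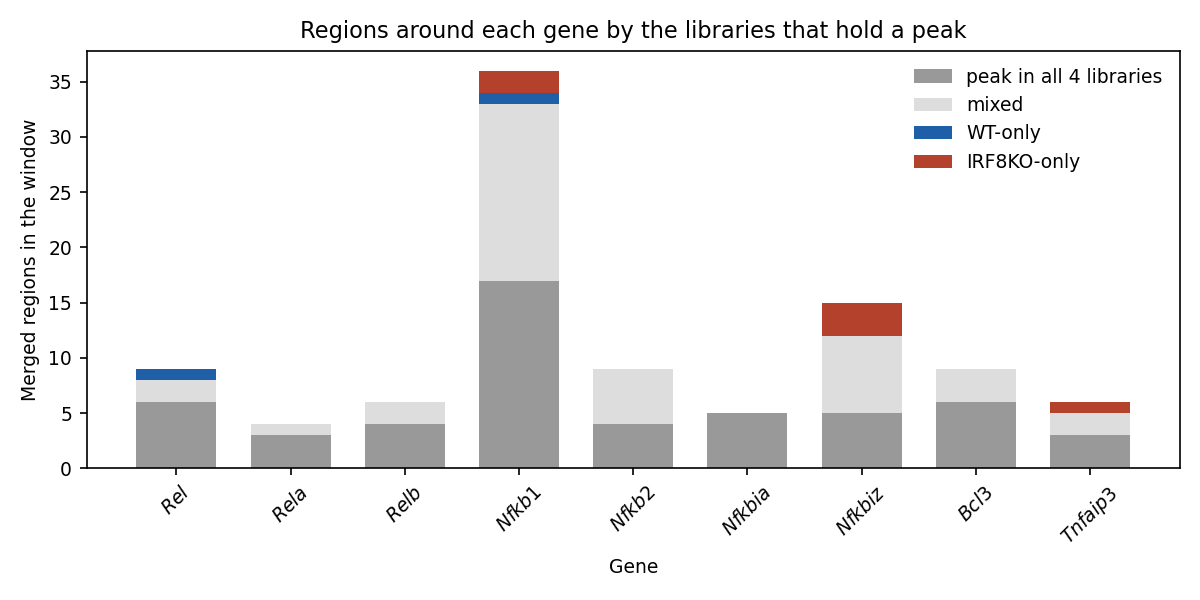
Number of merged regions (y axis) in the window of each gene (x axis), stacked by class: peak in all 4 libraries, mixed, WT-only or IRF8KO-only. Nfkb1 has the most regions, 36, and Nfkbiz has the most IRF8KO-only regions, 3.

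Normalised pileup over all shared regions was tested with limma and Benjamini-Hochberg adjustment over 58550 regions. Of the 53 shared member regions, 1 was higher in IRF8KO, or 1.89%, against 2.81% of all shared regions, and 0 were lower, against 6.82% of all. At an unadjusted p under 0.05 in either direction there were 9, or 17%, against 20.2% of all shared regions. The median log2 ratio of IRF8KO over WT was -0.13 for the members and -0.31 for all shared regions. Scaling each library to its median moved the latter to 0 and the former to 0.17. Under that scaling limma called 10 members higher and 3 lower, against 13.3% and 12.5% of all shared regions, and the calls over all regions were 51.7% higher, compared with 29.1% higher per 1000000 tags. Directions of moderate size around these genes thus depended on the scaling.

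Without any test, both IRF8KO libraries lay above both WT libraries in 8 of the 53 shared member regions, or 15.1%, against 11.9% of all shared regions. They lay below in 13, or 24.5%, against 37.1% of all. In the other 32 the libraries of the genotypes overlapped.

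**Figure D2:**
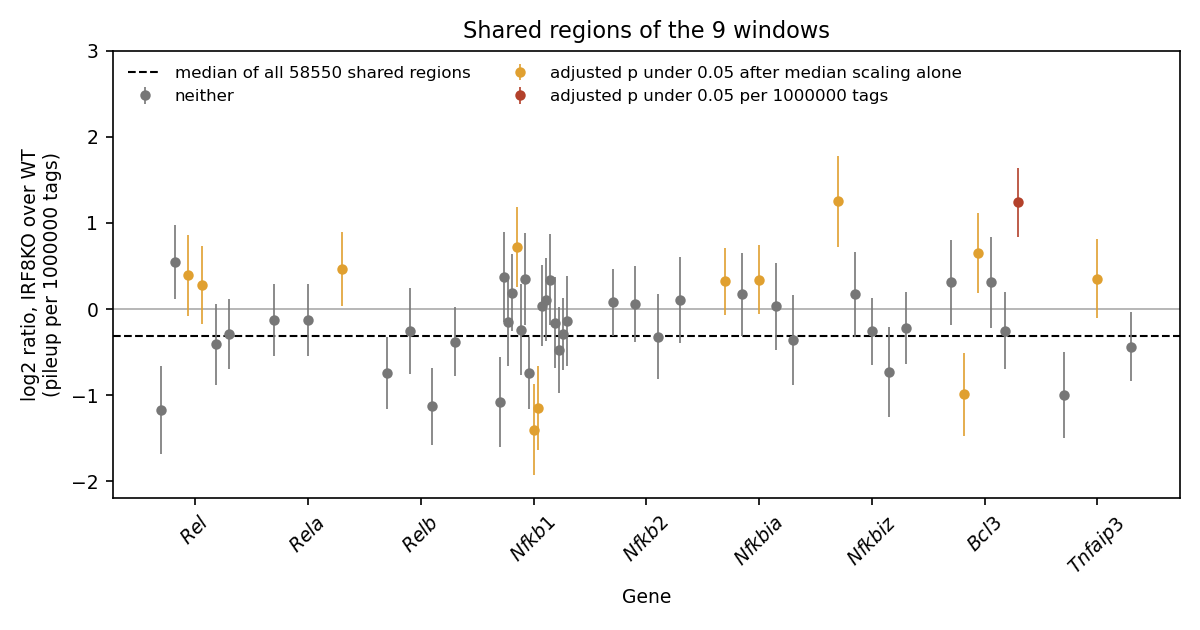
Log2 ratio of IRF8KO over WT in pileup per 1000000 tags (y axis) for each shared region, ordered along the chromosome within its gene (x axis), with the limma standard error as bars and the median of all shared regions as a dashed line. The upstream Bcl3 region is the single one with an adjusted p under 0.05 per 1000000 tags, and 38 of the 53 regions lie between -0.5 and 0.5.

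Rel encodes c-Rel, a subunit with a transactivation domain that is used mainly in immune cells. The region at its start (chr11:23770575-23771578) had 3.88 and 3.19 in WT and 2.49 and 3.34 in IRF8KO, and the genotypes overlapped. Limma gave a log2 ratio of -0.29 (SE 0.41, adjusted p = 0.754), which became 0.02 after median scaling. Its 9 regions included the WT-only region 7.92 kb upstream of the start (chr11:23778816-23779063, intergenic), whose ETS-IRF sequence is printed above. That region had 0.469 and 0.307 in WT and no deposited peak in IRF8KO. Peak calls depend on the local background as well as on depth, so a missing peak here and below does not show an absence of signal. ETS-IRF letters stood in 11.4% of all WT-only regions and in 0.666% of all IRF8KO-only regions. The strongest distal shared region, in an intron 8.04 kb downstream of the start, had 1.21 and 0.859 in WT and 0.977 and 1.83 in IRF8KO, again overlapping. Its log2 ratio was 0.39 (adjusted p = 0.706 in limma), 0.69 (adjusted p = 0.0184) after median scaling and 0.5 (adjusted p = 0.301) with fold enrichment over the local background in place of pileup. Without IRF8KO replicate 2 it was -0.06. Another intronic region, 1.12 kb downstream of the start (chr11:23769689-23769976), had 1.32 and 1.33 in WT, against 1.43 and 1.8 in IRF8KO. Its log2 ratio of 0.28 (adjusted p = 0.789 in limma) became 0.58 (adjusted p = 0.0386) after median scaling, 0.57 (adjusted p = 0.0562) after quantile normalization and 0.38 (adjusted p = 0.631) with fold enrichment.

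Rela encodes p65, the activating partner in the most common NF-κB dimer. It had the fewest regions of the 9 genes, 4, and none was genotype-specific. At its start (chr19:5637076-5638025) pileup was 2.47 and 2.29 in WT and 1.93 and 2.46 in IRF8KO, with a log2 ratio of -0.13 (SE 0.42, adjusted p = 0.905 in limma). A pair of intergenic regions lay just past the end of the gene. The nearer one (chr19:5648731-5649255) had 3.13 and 2.21 in WT and 2.21 and 2.6 in IRF8KO. In the farther one (chr19:5649299-5649828) pileup was 1.83 and 1.33 in WT, against 2.03 and 2.31 in IRF8KO. The genotypes overlapped in the nearer region and did not in the farther one, for which limma gave a log2 ratio of 0.47 (SE 0.43, adjusted p = 0.605) per 1000000 tags and 0.78 (adjusted p = 0.00202) after median scaling. With fold enrichment over the local background in place of pileup it was 0.33 (adjusted p = 0.572).

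Relb encodes the activating subunit of the alternative pathway, which pairs with p52. The region at its start (chr7:19628369-19629643) had 5.07 and 4.17 in WT and 2.89 and 4.32 in IRF8KO, so the genotypes overlapped. Its log2 ratio was -0.38 (SE 0.4, adjusted p = 0.657 in limma). The Relb window had 8 and 6 strict peaks in WT against 4 and 5 in IRF8KO, without overlap and with no genotype-specific region. The Rela window separated too, at 4 and 4 against 3 and 3. The whole strict lists were also shorter in IRF8KO, at 83996 and 95921 peaks against 97473 and 98863 in WT. How many of all gene windows separate in this way was not counted. The strongest distal shared region (chr7:19604231-19604668), which is also at a start of the neighbouring gene Clasrp, had 2.96 and 3.29 in WT and 1.54 and 2.28 in IRF8KO. Both IRF8KO values lay below both WT values there, with a log2 ratio of -0.74 (SE 0.42, adjusted p = 0.323 in limma). Without IRF8KO replicate 2 it was -1.02 (adjusted p = 0.031 in limma), without IRF8KO replicate 1 it was -0.45 (adjusted p = 0.562), and with fold enrichment over the local background in place of pileup it was -0.31 (adjusted p = 0.294). Relb had the lowest median log2 ratio of the 9 genes over its shared regions, -0.56 over 4 of them, and none of the 4 passed the test.

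Nfkb1 encodes p105, which is processed to the subunit p50. It is the longest of the 9 genes, and its window held 36 of the 99 regions. At the gene start (chr3:135691133-135692038) pileup was 2.73 and 2.52 in WT and 1.78 and 2.6 in IRF8KO, which overlapped, and limma gave a log2 ratio of -0.29 (SE 0.42, adjusted p = 0.765). The strongest region within 1 kb of any annotated start, by the mean over all 4 libraries, lay at an internal one (chr3:135608136-135608539), 83.2 kb downstream of the gene start. In IRF8KO alone the gene start was the stronger of them, at a mean of 2.19 against 1.86. That region had 3.34 and 2.68 in WT and 1.36 and 2.36 in IRF8KO, with both WT libraries higher. Its log2 ratio was -0.74 (SE 0.42, adjusted p = 0.323 in limma). Without IRF8KO replicate 2 it was -1.14 (adjusted p = 0.0155 in limma), without IRF8KO replicate 1 it was -0.35 (adjusted p = 0.707), and with fold enrichment it was -0.06 (adjusted p = 0.929).

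Next to that internal start lay a stretch of introns with little signal in IRF8KO. It ran over 27.6 kb, from 53.6 to 81.2 kb downstream of the gene start (chr3:135610365-135637941), and was picked out after the values were seen, so it carries no test. It held 8 regions, of which 7 had a peak in both WT libraries, and in all 7 both WT values exceeded any IRF8KO value. IRF8KO replicate 1 had no deposited peak in 5 of the 7 and IRF8KO replicate 2 in 1 of them. Summed over the stretch, pileup was 8.6 and 7.25 in WT and 0.775 and 2.34 in IRF8KO. Over the other 28 Nfkb1 regions the sums were 16.5 and 13.5 in WT and 12.2 and 20.8 in IRF8KO, so the rest of the window did not separate the genotypes. Summed promoter pileup of the microglial markers was also lower in IRF8KO (9.65 and 15.6 against 24.2 and 17.7), as was that of the oligodendrocyte markers and of Cdh5, by the values given above, and their part in this stretch was not tested.

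The strongest region of the stretch in WT was the WT-only region printed above (chr3:135612783-135613098). Its pileup was 2.19 and 2.07 in WT, a mean of 2.13 ± 0.0849 (SD, n = 2), and IRF8KO held no deposited peak. In the same stretch a region with 1.24 and 1.29 in WT (chr3:135637686-135637941) had no peak in IRF8KO replicate 1 and 0.136 in replicate 2. A region 74.6 kb downstream of the start (chr3:135616810-135617027) had 0.916 and 0.736 in WT and 0.267 and 0.362 in IRF8KO. It was lower in both IRF8KO libraries, with a log2 ratio of -1.4 (SE 0.53, adjusted p = 0.0725 in limma). Another, 63.4 kb downstream (chr3:135628065-135629238), had 1.38 and 1.25 in WT and 0.508 and 0.695 in IRF8KO, a log2 ratio of -1.15 (SE 0.49, adjusted p = 0.132 in limma). These last regions missed the threshold per 1000000 tags and passed it after median scaling, with log2 ratios of -1.1 and -0.84 and adjusted p of 0.00412 and 0.00809 in limma. With fold enrichment they were -0.22 and -0.45 (adjusted p = 0.808 and 0.437). ETS-IRF letters occurred once in the stretch, in the region that had a peak in IRF8KO replicate 2 alone, and an interferon response element once, at its end nearest the internal start.

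**Figure D3:**
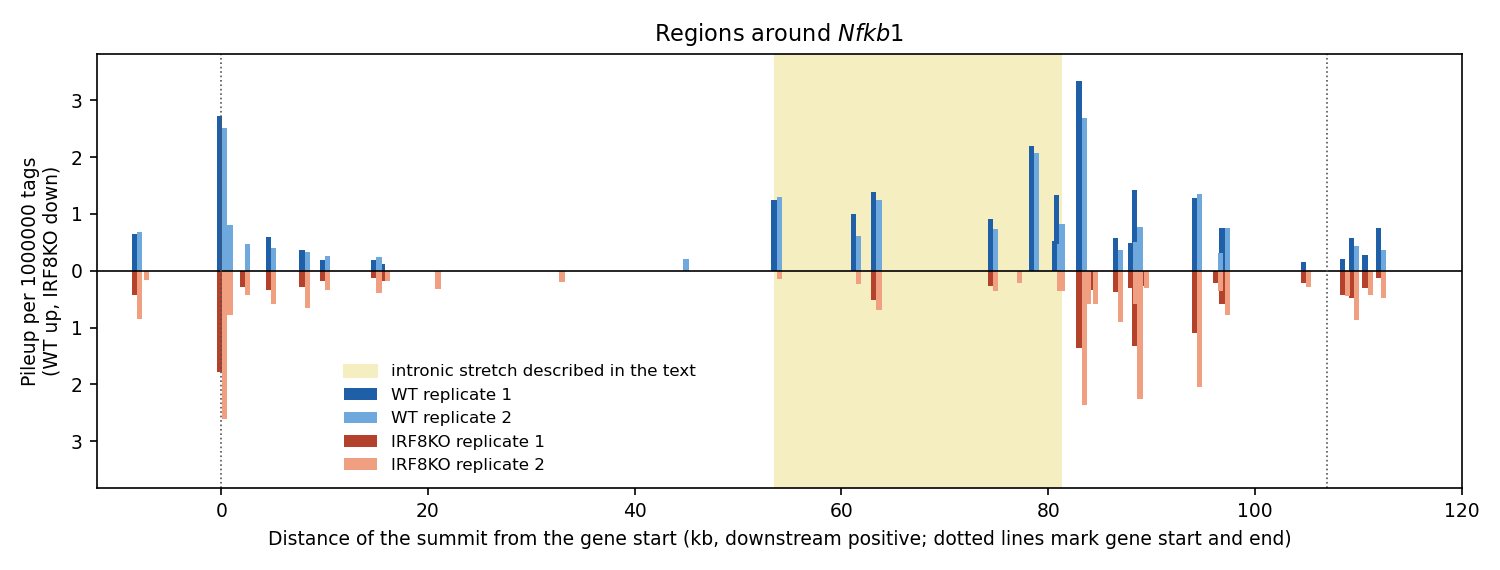
Summit pileup per 1000000 tags (y axis, WT upward and IRF8KO downward) of each region against its distance from the Nfkb1 start in kb (x axis), with a bar per library. The shaded stretch was chosen after its values were seen. Summed pileup in it is 8.6 and 7.25 in WT and 0.775 and 2.34 in IRF8KO. Over the other Nfkb1 regions it is 16.5 and 13.5 in WT and 12.2 and 20.8 in IRF8KO.

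Between the internal start and the 3′ end, the genotypes overlapped in every shared region. The IRF8KO-only regions of Nfkb1 both lay there. One had its summit in an exon of a non-coding transcript (chr3:135602183-135602385), had 0.267 and 0.302 in IRF8KO and contained a κB match. The other was intronic and near an internal start (chr3:135607159-135607507), with 0.343 and 0.589 and an AP-1 match. Between these lay shared regions near other internal starts. One of them (chr3:135602605-135603186) had 1.43 and 0.777 in WT, against 1.33 and 2.25 in IRF8KO. Values overlapped there, and the log2 ratio was 0.72 (adjusted p = 0.4 in limma), 1.02 (adjusted p = 0.000213) after median scaling and 0.48 (adjusted p = 0.45) with fold enrichment. The others (chr3:135603267-135603420 and chr3:135604758-135604944) had log2 ratios of -0.24 and 0.35 (adjusted p = 0.847 and 0.77 in limma). A shared region nearer the 3′ end (chr3:135596862-135597341) had 1.28 and 1.35 in WT and 1.09 and 2.05 in IRF8KO, which overlapped. Another (chr3:135594313-135594582) had a log2 ratio of -0.15 (adjusted p = 0.907 in limma). The IRF8KO-only regions lay 10.4 and 5.28 kb from the WT-only region, so both genotype-specific classes occurred close together in Nfkb1. They were not of like strength. The −log10 q was 3.68 and 2.09 in the first IRF8KO-only region, 3.17 and 6.17 in the other, and 64.3 and 67.9 in the WT-only region.

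Nfkb2 encodes p100, which is both an inhibitor and the precursor of the subunit p52. Its start (chr19:46304202-46305025) was among the most accessible of the 9, with 5.41 and 4.7 in WT, against 4.9 and 5.84 in IRF8KO. The genotypes overlapped, and the log2 ratio was 0.08 (SE 0.39, adjusted p = 0.93 in limma). No region was genotype-specific or called. The strongest distal shared region (chr19:46309149-46309344), over a coding exon, had 1.02 and 0.879 in WT and 0.736 and 0.785 in IRF8KO. Of the 9 regions in this window, 6 also lay within 1 kb of a start of another gene.

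Nfkbia encodes IκBα, the classical inhibitor. All 5 of its regions held a peak in every library. At its start (chr12:55491812-55492907), where the printed κB match lies 29 bases upstream, pileup was 2.83 and 3.37 in WT and 3.71 and 4.15 in IRF8KO. Among the strongest promoter regions of the 9 genes it was the one at which both IRF8KO libraries exceeded both WT libraries, with means of 3.1 ± 0.382 and 3.93 ± 0.311 (SD, n = 2 each). The log2 ratio was 0.34 (SE 0.4, adjusted p = 0.698 in limma) per 1000000 tags and 0.65 (adjusted p = 0.00353) after median scaling, and 0.09 (adjusted p = 0.924) with fold enrichment. Over 13074 protein-coding genes with a shared promoter region, the median ratio was -0.34 and that of Nfkbia stood at the 95.5th percentile. It was the member farthest from that median. The promoters closest to it over the 4 libraries were those of Zbtb41, Phlda1 and Zfyve16, at Euclidean distances of 0.236, 0.342 and 0.355 in log2 normalised pileup. The strongest region of the window lay 3.79 kb downstream of the start, just past the 3′ end (chr12:55488583-55489070), with 4.64 and 3.52 in WT and 4.25 and 5.96 in IRF8KO. It also held a κB match, and the genotypes overlapped, with a log2 ratio of 0.32 (SE 0.39, adjusted p = 0.714 in limma) that was 0.62 (adjusted p = 0.0014) after median scaling and 0.08 (adjusted p = 0.917) with fold enrichment.

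Nfkbiz encodes IκBζ, a nuclear protein that helps NF-κB activate a set of secondary response genes. It had 9 and 6 strict peaks in WT against 11 and 15 in IRF8KO, without overlap, and the share of all gene windows that separate was not counted. Its window held 3 of the 6 IRF8KO-only regions of the 9 genes. Given here are 2 of the 3, neither of which reached a −log10 q of 5 in both libraries. Downstream of the gene, an intergenic IRF8KO-only region (chr16:55801684-55801885) had 0.305 and 0.589. Another (chr16:55807746-55807900) had 0.406 and 0.393 and a CEBP match. Border macrophage promoters were also higher in both IRF8KO libraries (2.39 and 4.27 against 0.958 and 0.757), and their part in these regions was not tested.

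A broad shared region 29.3 kb downstream of the Nfkbiz start (chr16:55809225-55810469) had 0.298 and 0.327 in WT and 0.939 and 0.589 in IRF8KO. Both IRF8KO values were higher, with a log2 ratio of 1.25 (SE 0.53, adjusted p = 0.128 in limma), and 1.56 (adjusted p = 0.000146) after median scaling. With fold enrichment it was 0.19 (adjusted p = 0.811). The start regions did not follow. At the gene start (chr16:55838555-55839516) pileup was 3 and 2.15 in WT, against 2.16 and 2.19 in IRF8KO. An internal start (chr16:55821532-55822671) was the strongest promoter region of the 9 genes in WT, with 5.9 and 5.17, and had 4.07 and 5.22 in IRF8KO. Its log2 ratio was -0.26 (SE 0.39, adjusted p = 0.768 in limma). The strongest distal shared region, with its summit in a UTR of the gene, had 1.17 and 0.552 in WT and 0.99 and 0.831 in IRF8KO.

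Bcl3 encodes an atypical IκB protein that acts in the nucleus on p50 and p52 dimers. Its window held the single member region past the threshold, an intergenic region 8.16 kb upstream of the start (chr7:19830687-19831365). Pileup there was 2.64 and 1.86 in WT and 5.13 and 5.33 in IRF8KO, means of 2.25 ± 0.552 and 5.23 ± 0.141 (SD, n = 2 each). Both IRF8KO libraries were well above both WT libraries, with a log2 ratio of 1.24 (SE 0.4, adjusted p = 0.0271 in limma). This ratio, between means of log2 values, is a 2.36-fold difference. After median scaling the log2 ratio was 1.54 (adjusted p = 4.3e-11). With fold enrichment over the local background in place of pileup it was 0.34 (adjusted p = 0.315). The call was also lost without WT replicate 1 (log2 ratio 1.49, adjusted p = 0.692 in limma) and without WT replicate 2 (0.99, adjusted p = 0.893), where the lone WT library is assumed to vary like the others. Border macrophage promoters were higher in both IRF8KO libraries as well, by the values given above, and their part in this region was not tested.

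Near the start of Bcl3 lay 3 regions. One 1.63 kb upstream (chr7:19824077-19824465) had no deposited peak in WT replicate 1 and 0.307 in WT replicate 2, against 0.647 and 0.997 in IRF8KO, and was not in the test of shared regions. The one over the start, which contains the printed κB match (chr7:19822632-19822948), had 0.362 and 0.307 in WT and 0.355 and 0.483 in IRF8KO. A stronger one 0.86 kb upstream (chr7:19823424-19824020) had 1.6 and 1.53 in WT and 1.29 and 1.34 in IRF8KO, a log2 ratio of -0.25 (SE 0.45, adjusted p = 0.813 in limma). It was slightly lower in both IRF8KO libraries per 1000000 tags, and the log2 ratio turned to 0.06 after median scaling and 0.05 after quantile normalization. Intronic regions went in opposite directions. The one 5.18 kb downstream (chr7:19817277-19817805), which holds the κB match tgccgcctcgGGGAAATCCCttcccgcaca on the gene strand (capitals at chr7:19817630-19817639), had 1.11 and 0.961 in WT and 1.37 and 1.9 in IRF8KO. One at 6.35 kb (chr7:19816287-19816710) had 1.73 and 1.12 in WT and 0.508 and 0.966 in IRF8KO. Their log2 ratios were 0.65 (SE 0.46, adjusted p = 0.47) and -0.99 (SE 0.48, adjusted p = 0.209 in limma), and neither passed per 1000000 tags. After median scaling they were 0.95 (adjusted p = 0.000542) and -0.69 (adjusted p = 0.0291), and with fold enrichment 0.48 (adjusted p = 0.36) and -1.1 (adjusted p = 0.0867).

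**Figure D4:**
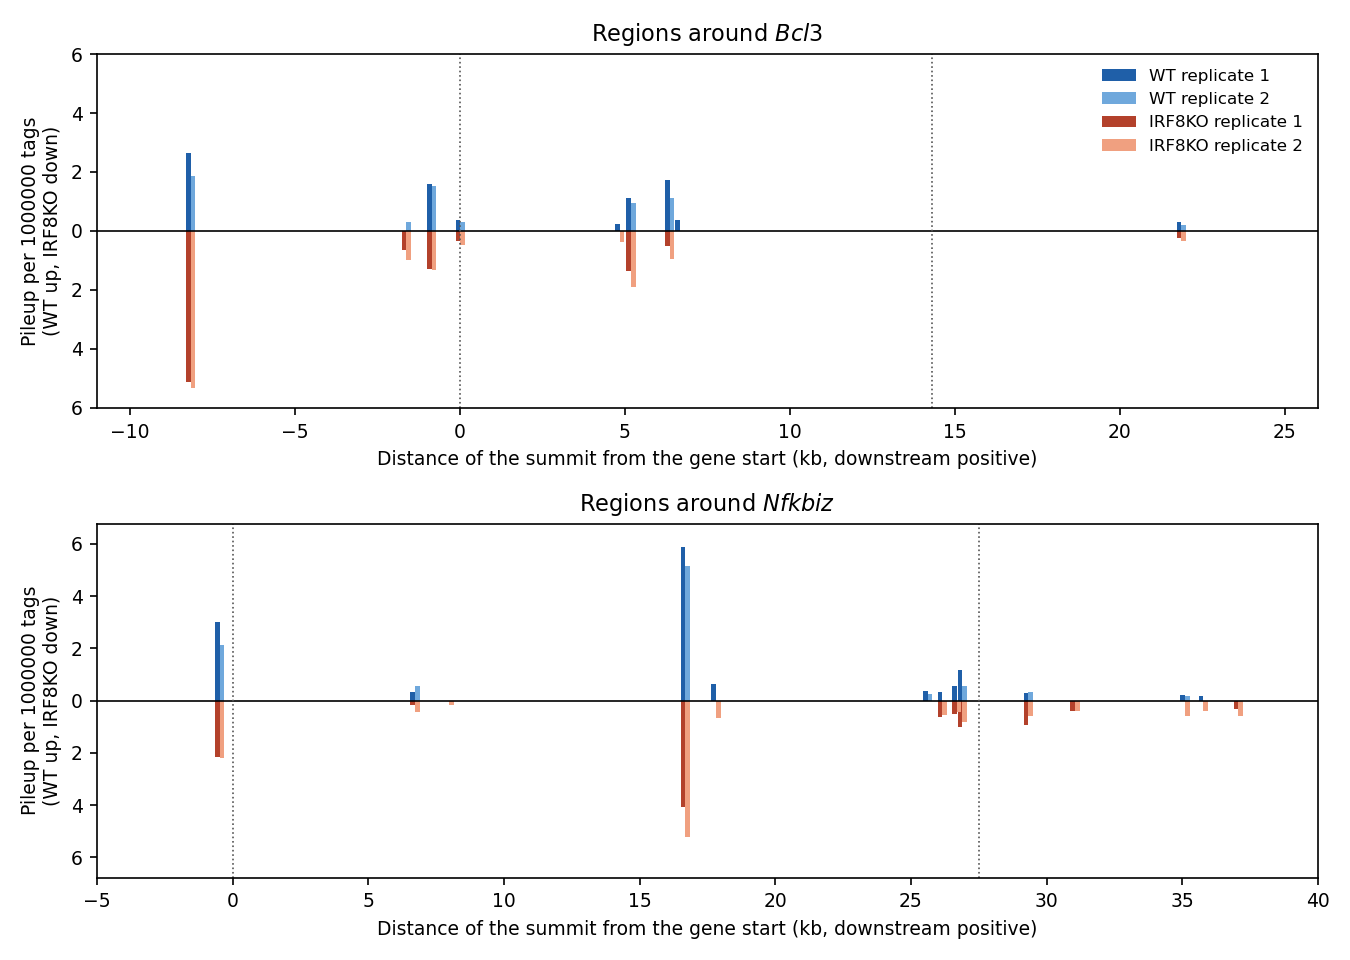
Summit pileup per 1000000 tags (y axis, WT upward and IRF8KO downward) against distance from the start in kb (x axis) for Bcl3 (top) and Nfkbiz (bottom), with a bar per library and dotted lines at the gene start and end. The bars 8.16 kb upstream of Bcl3 reach 5.13 and 5.33 in IRF8KO against 2.64 and 1.86 in WT, and Nfkbiz, plotted with only part of its upstream flank, has small IRF8KO bars without WT bars downstream of its end.

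Tnfaip3 encodes A20, a ubiquitin-editing enzyme that shuts off signalling to NF-κB. The region at its start (chr10:19015059-19015886) had 5.15 and 3.89 in WT, against 2.65 and 4.11 in IRF8KO. The genotypes overlapped, and the log2 ratio was -0.44 (SE 0.4, adjusted p = 0.597 in limma). An IRF8KO-only region lay in an intron beside it (chr10:19014812-19014986), with 0.355 and 0.393. The merged start region ends 73 bp away from it. The strongest distal shared region, 16.1 kb downstream of the start (chr10:18999402-18999701), had 0.341 and 0.429 in WT and 0.203 and 0.181 in IRF8KO. It was lower in both IRF8KO libraries, with a log2 ratio of -1 (SE 0.5, adjusted p = 0.23 in limma), and did not pass the test. An intronic region 6.11 kb downstream of the start (chr10:19009219-19009730) was higher in both, with 1.17 and 0.941 in WT, against 1.41 and 1.27 in IRF8KO. Its log2 ratio was 0.35 (adjusted p = 0.738 in limma), 0.65 (adjusted p = 0.0333) after median scaling, 0.63 (adjusted p = 0.0803) after quantile normalization and 0.43 (adjusted p = 0.441) with fold enrichment.

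Set side by side, the promoters formed an order that was broadly kept. The region of each gene with the highest mean over all 4 libraries was used for both genotypes. In WT these regions ran from Nfkbiz (5.54 ± 0.516), Nfkb2 (5.05 ± 0.502), Relb (4.62 ± 0.636) and Tnfaip3 (4.52 ± 0.891) down to Bcl3 (1.56 ± 0.0495, SD, n = 2 each). The values of these first 4 overlapped between neighbours. Neighbours without overlap were Tnfaip3 and Rel (3.54), Nfkb1 (3.01) and Rela (2.38), and Rela and Bcl3. Tnfaip3 and Rel nearly touched, with 3.89 as the lower Tnfaip3 value and 3.88 as the higher Rel value. In IRF8KO, Nfkb2 stood first (5.37 ± 0.665), followed by Nfkbiz (4.64 ± 0.813) and Nfkbia (3.93 ± 0.311), and Bcl3 was last again (1.31 ± 0.0354). Non-overlapping neighbours were Rel and Rela, and Nfkb1 and Bcl3, where Nfkb1 stood at its internal start (1.86) and not at its gene start (2.19). For none of the 9 promoters did the log2 ratio pass the limma threshold per 1000000 tags.

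**Figure D5:**
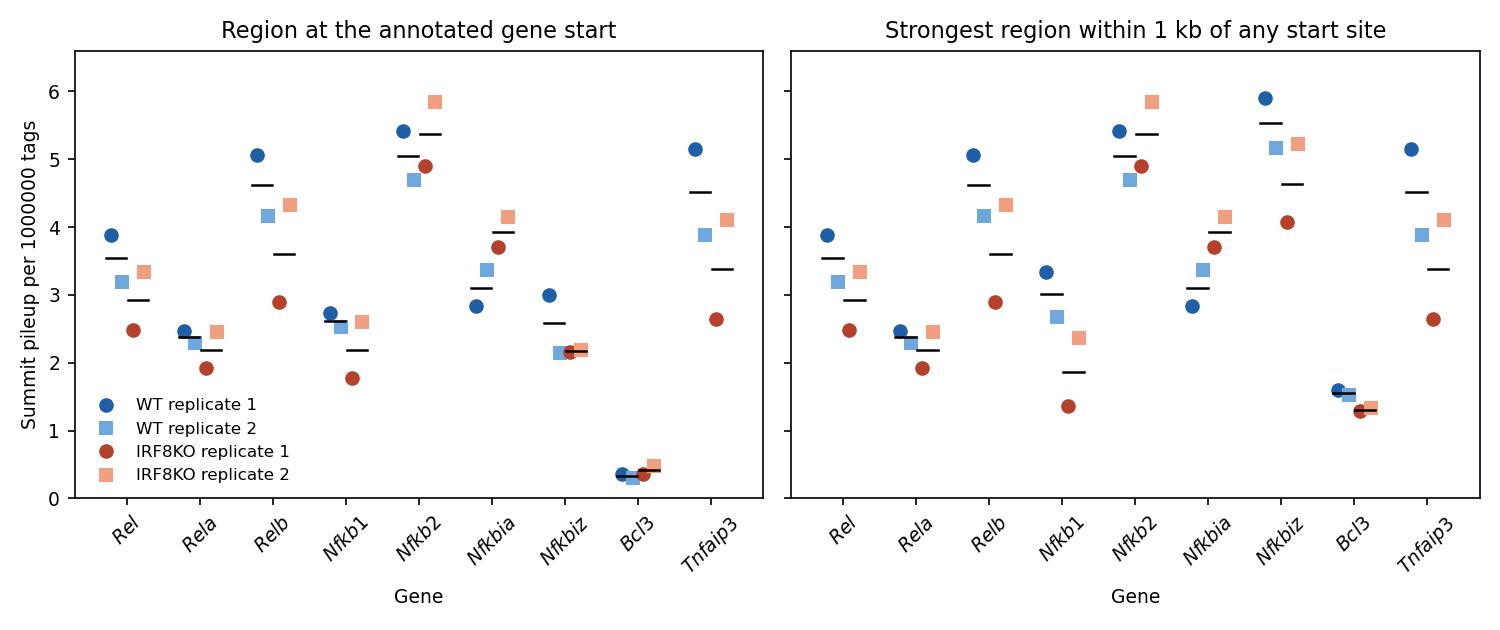
Summit pileup per 1000000 tags (y axis) in each library for the region at the gene start (left) and for the strongest region within 1 kb of any annotated start site (right) of each gene (x axis), with horizontal lines at the means of 2 libraries. At Nfkbia both IRF8KO points lie above both WT points, while IRF8KO replicate 1 is lowest at Rel, Rela, Relb, Nfkb1 and Tnfaip3.

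The wider pathway was read from a list of 44 further genes, all matched, whose windows held 444 regions. Of these, 27 were WT-only (6.08%, in 18 genes) and 26 IRF8KO-only (5.86%, in 15 genes). Among 240 shared regions, limma called 6 higher in IRF8KO (2.5%, in 5 genes) and 14 lower (5.83%, in 9 genes). These shares are near those over all regions given above, except that the IRF8KO-only share lies above 3.86%.

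The lower regions are given by the gene whose window held them, without a reading of the list as a whole. Ikbkb, the catalytic subunit of the IκB kinase, had an intergenic one with 2.17 and 1.64 in WT and 0.228 and 0.695 in IRF8KO (log2 ratio -2.24, SE 0.49, adjusted p = 0.000223 in limma). Map3k7, the kinase TAK1, held one with 1.41 and 1.06 in WT and 0.102 and 0.196 in IRF8KO (log2 ratio -3.11, SE 0.53, adjusted p = 6.44e-07 in limma). Tnip3, whose product binds A20, had 3 lower regions, the strongest with 4.79 and 3.33 in WT and 0.495 and 1.15 in IRF8KO (log2 ratio -2.41, SE 0.44, adjusted p = 4.3e-06 in limma). In these regions both IRF8KO libraries lay far below both WT libraries. Irak2, a kinase of the Toll-like receptor complex, had a lower intronic region with a log2 ratio of -1.92, and another in its window, at -1.6, had its summit in a UTR of the neighbouring gene Vhl. Its introns also held a WT-only region (0.405 and 0.429) and 2 IRF8KO-only regions (0.495 and 0.664, and 0.698 and 1.27), so they held both genotype-specific classes. Tab2, an adaptor of TAK1, had 3 with -1.36 to -1.54. Tbk1 had a lower intronic region with a log2 ratio of -1.41, and 2 IRF8KO-only regions with 0.165 and 0.287 and with 0.279 and 0.468. Those in the windows of Traf5 and Nkiras2, with -1.34 and -1.35, had their summits in the neighbouring genes Rcor3 and Dnajc7. The window of Rnf31, the catalytic subunit of the linear ubiquitin ligase, held 3 WT-only regions, all with summits in neighbouring genes. The strongest, with 2.3 and 1.62, lay in an intron of Emc9, and the others in Psme2 and Irf9.

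Tank, an adaptor that binds TRAF proteins, had 2 higher regions. The stronger had 0.596 and 0.368 in WT and 1.73 and 2.7 in IRF8KO (log2 ratio 2.2, SE 0.48, adjusted p = 0.000187 in limma). Map3k14, the kinase NIK of the alternative pathway, had a region with 1 and 0.859 in WT and 2.93 and 3.52 in IRF8KO (log2 ratio 1.79, SE 0.44, adjusted p = 0.00132 in limma), and 2 IRF8KO-only regions. Nfkbid, an atypical IκB, had one with 0.596 and 0.736 in WT and 1.81 and 2.07 in IRF8KO (log2 ratio 1.55, SE 0.47, adjusted p = 0.0147 in limma). Each of these rose in both IRF8KO libraries. Otulin and Birc2 had called regions with log2 ratios of 1.31 and 1.49. Tnip1, which encodes an A20-binding protein, had 5 IRF8KO-only regions between 0.178 and 0.453, and Irak3, an inhibitory member of the IRAK family, had 3 between 0.152 and 0.453. Counting the Bcl3 region, 21 regions of the 9 and the 44 genes passed the limma threshold. Without WT replicate 1 or 2, 1 and 2 of them still passed, and without IRF8KO replicate 1 or 2, 14 and 19 did. All 21 also passed after median scaling and after quantile normalization, 8 of them with fold enrichment, and 3 with replicate number as a block.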

How the data were processed

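The data are peak lists of 4 ATAC-seq libraries. Per the submitters' processing notes, bcl2fastq, Bowtie2, MACS2 2.1.1.20160309, deepTools and mm10 were used. Each list was called on its own library, per the file headers. The deposited pileup is a signal, a whole-number depth at the summit that is not scaled for depth, although the headers name scaling to reads. Fold enrichment was deposited as a ratio to a local background. Peak p and q were deposited as −log10 values, and the q column held values although the headers say that q was not calculated. Depth and tag size (50 bp in WT, 49 bp in IRF8KO) followed genotype and cannot be told apart from it.

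Strict peaks were reduced to distinct intervals (autosomes and X) and merged over libraries, and a peak counted in a region from 1 bp of overlap. Pileup per 1000000 tags was compared on the log2 scale with limma 3.58.1 (R 4.3.3, trended prior) over all shared regions, with an adjusted p threshold of 0.05. The fit was tested on simulated data beforehand, and a region that missed the threshold is not shown to be equal between the genotypes. Counts per library were compared by exact permutation tests. Genes and starts came from GENCODE M21 and promoter sequences from RefSeq. The members, the further genes and the motifs were chosen with earlier results of these data known. Regions named were each member's strongest region within 1 kb of a start and strongest distal shared region, and every genotype-specific or called region. Regions called after median scaling alone, the gene-start regions and the Nfkb1 stretch were named after their values were seen. Promoters of neuron, lymphocyte, neutrophil and monocyte markers summed to at most 1.36 per 1000000 tags in any library. Some regions counted in the totals are not reported here one by one.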

Additional observations from a re-analysis of the deposited data

How the results depend on the processing

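The 2 WT-only regions became 1 in the gene bodies alone and 5 with 50 kb on each side, and ranged from 2 to 8 when 1 library was left out, where the share over all regions rose from 5.58% to between 7.03% and 17.9%. The 6 IRF8KO-only regions became 1 at a −log10 q of 5 or more, 3 in the gene bodies alone and 12 with 50 kb, and ranged from 8 to 13 when 1 library was left out, where the share over all regions rose from 3.86% to between 5.69% and 15%. The difference in strict peaks ranged from -2 to 14 over left-out libraries and turned negative without IRF8KO replicate 2. Called shared regions, 1 higher and 0 lower, became 10 and 3 after median scaling, 8 and 3 after quantile normalization and 4 and 4 with 50 kb. Of all shared regions, 13.3% and 12.5% were called higher and lower after median scaling, and 12.2% and 11.9% after quantile normalization. The 4 and 4 were of 117 regions, against 2.81% and 6.82% of all. The higher one was lost (0) with fold enrichment and in the gene bodies alone. Over left-out libraries, higher calls ranged from 0 to 2 and lower calls from 0 to 8, against 0.229% to 5.66% and 0.23% to 21.2% of all shared regions. The 8 were of 56 regions without IRF8KO replicate 2, where 21.2% of all were lower. The median log2 ratio was 0.17 after median scaling and 0.17 after quantile normalization, and ranged from -0.3 to 0.04 over left-out libraries. With replicate number as a block, 0 regions were called higher and 0 lower, and the Bcl3 region had an adjusted p of 0.572 in limma. The numbers share no stated animal or batch, and deviations of same-numbered libraries had a correlation of 0.00438 over 58550 regions.

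Over 50 named regions and 441 refits, 314 kept direction and side of the threshold, 78 lost the threshold, 28 passed it newly and 21 changed sign. After median scaling, log2 ratios became 0.04 at the internal Nfkbiz start and 0.08 at its gene start, 0.02 at the starts of Rel and Nfkb1, 0.18 at that of Rela, 0.17 at the distal Rela region and 0.06 at the Bcl3 promoter. After quantile normalization they were 0.14 and 0.12 at Rela, 0.05 at Bcl3 and 0.03 at the Nfkbiz gene start. With fold enrichment they were -0.06 at Nfkb2 and -0.86 at the distal Nfkbiz region. Over left-out libraries the Nfkb2 start ranged from -0.04 to 0.21, with -0.02 without WT replicate 2, and the distal regions of Rel, Rela, Nfkb1 and Nfkbiz from -0.06 to 0.84, -0.39 to 0.12, -0.27 to 0.64 and -0.37 to 0.72. The Nfkbiz gene start ranged from -0.47 to 0.02, and the Rela start reached 0.05 without IRF8KO replicate 1. The cause was not tested. Calls need depth and depend on the local background, so a missing peak is not an absence of signal.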
